A study of Mus musculus with 19 samples.

Results

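The retrotransposon subfamilies described here are the 10 of 259 in the deposited lists whose names begin with IAPEY, upper or lower case, in FACS-purified mouse spermatogonia at postnatal day 7. All carry the class and family LTR/ERVK in those lists. There are 4 internal regions (IAPEy-int, IAPEY3-int, IAPEY4_I and IAPEY5_I) and 6 long terminal repeats (LTRs), namely IAPEY_LTR, IAPEY2_LTR, IAPEY3_LTR, IAPEY3C_LTR, IAPEY4_LTR and IAPEY5_LTR. The name alone gave the 10 members. The group was, however, selected on the RPM of IAPEy-int and IAPEY_LTR in KO and wild-type libraries, where they had appeared higher in *Pld6* KO only. Every comparison of KO with wild type is therefore a description for the members. No p-value of a member is printed for it, and members past the threshold are counted without being taken as evidence.

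The 19 mRNA-seq libraries came from EpCAM-positive cells, EpCAM being the surface protein used for sorting, and each library is labelled a biological replicate. The *Dnmt3l* line gave 2 wild-type (+/+), 3 heterozygous (+/-) and 3 KO (-/-) libraries, and the *Pld6* line gave 3 wild-type (+/+), 3 heterozygous (+/-) and 5 KO (-/-) libraries. The methods text swaps the numbers of wild-type and heterozygous *Dnmt3l* mice relative to the sample labels, and the labels were used here, so which libraries form the *Dnmt3l* wild type rests on the labels alone. Both KOs are constitutive, on the C57BL/6J background and each has its own wild type, so line and any batch cannot be told apart. The question was how retrotransposon transcripts change when *de novo* DNA methylation or piRNA production is lost.

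Intracisternal A particles (IAPs) are mouse endogenous retroviruses that move through an RNA copy. Their LTRs hold the promoter and the polyadenylation signal, and the internal region between the LTRs holds the *gag*, *pro* and *pol* reading frames. IAPE elements also carry an envelope-like reading frame, and IAPE-Y elements were named for their abundance on the Y chromosome. PLD6 is a protein of the mitochondrial outer membrane needed to make piRNAs, the small RNAs that guide silencing of transposons in male germ cells. DNMT3L has no methyltransferase activity of its own and is a cofactor for *de novo* DNA methylation in prospermatogonia.

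Values are RPM, reads on a consensus sequence scaled to the mapped total, as deposited. The summed RPM of all 259 subfamilies was between 7178 and 14603 in the 8 KO libraries and between 2103 and 4413 in the 11 others. *Pld6* heterozygous replicate 1 listed 159 subfamilies at 0, 5 members among them, whereas the other libraries listed between 60 and 90 at 0. Sequencing depth is unknown, since between 53.0% and 90.3% of a library's values under 3 RPM fell on multiples of 1 step, within 0.0055 RPM. Consensus lengths were not used, so levels are compared between groups and not between members. Spermatogonial marker genes and the *Pld6* and *Dnmt3l* transcripts were not analysed here, because the values cover retrotransposons. In these bulk libraries, fewer expressing cells and less RNA per cell cannot be told apart.

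IAPEy-int, the internal region of the elements that give the group its name, was higher in every *Pld6* KO library than in any other library. It was at 7.89, 9.01 and 14.16 RPM in the *Pld6* wild-type libraries, at 16.94, 13.27 and 11.42 RPM in the heterozygous libraries and at 32.2, 36.0, 37.27, 36.22 and 40.16 RPM in the KO libraries. The lowest *Pld6* KO library was at 32.2 RPM and the highest of the other 14 libraries at 16.94 RPM. In the *Dnmt3l* line it was at 9.87 and 14.38 RPM in wild type, at 9.64, 15.74 and 10.33 RPM in heterozygotes and at 8.54, 10.87 and 7.5 RPM in KO. Both *Dnmt3l* comparisons overlap, and *Dnmt3l* KO had the lowest mean of the 6 groups.

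The group means were 36.4 ± 2.86 RPM in *Pld6* KO (SD, n = 5) and 10.3 ± 3.34 RPM in *Pld6* wild type (SD, n = 3), a fold change of 3.29, taken as the ratio of the mean RPM + 1. Single *Pld6* KO libraries were between 2.92-fold and 3.63-fold over the wild-type mean. On the log2(RPM + 1) scale, which understates the change of low values, the difference was 1.75 (standard error 0.20). In *Dnmt3l* KO the mean was 8.97 ± 1.73 RPM (SD, n = 3) against 12.1 ± 3.19 RPM in wild type (SD, n = 2), a fold change of 0.760 and a log2 difference of -0.39 (standard error 0.26). The *Pld6* effect exceeded the *Dnmt3l* effect by 2.14 on the log2 scale (standard error 0.33). The 5 *Pld6* KO libraries lay close together, with an SD of 7.86% of their mean, whereas it was between 19.2% and 32.3% in the other 5 groups.

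IAPEY_LTR, the terminal repeat listed under the same name, had the same order of *Pld6* KO over all others. The *Pld6* libraries were at 2.4, 1.35 and 2.19 RPM in wild type, at 1.91, 2.72 and 1.78 RPM in heterozygotes and at 8.33, 6.07, 5.71, 10.4 and 7.53 RPM in KO. The *Dnmt3l* libraries were at 3.01 and 2.33 RPM in wild type, at 2.6, 3.19 and 2.85 RPM in heterozygotes and at 2.36, 2.73 and 2.96 RPM in KO. The lowest *Pld6* KO library, at 5.71 RPM, was thus above the highest other library, a *Dnmt3l* heterozygote at 3.19 RPM, and the *Dnmt3l* KO libraries lay within the range of the other *Dnmt3l* libraries.

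The fold change of IAPEY_LTR was 2.89 in *Pld6* KO, with single libraries between 2.25 and 3.83, and its log2 difference was 1.52 (standard error 0.20). In *Dnmt3l* KO the fold change was 1.00 and the log2 difference 0.01 (standard error 0.25). The RPM of IAPEY_LTR divided by that of IAPEy-int was between 0.150 and 0.304 in *Pld6* wild-type libraries and between 0.153 and 0.287 in *Pld6* KO libraries, so the proportion of LTR to internal region overlapped. The same ratio was 0.305 and 0.162 in *Dnmt3l* wild type and between 0.251 and 0.395 in *Dnmt3l* KO, again overlapping. The single libraries did not keep 1 order in both members, since *Pld6* KO replicate 5 had the highest IAPEy-int and replicate 4 the highest IAPEY_LTR.

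**Figure D1:**
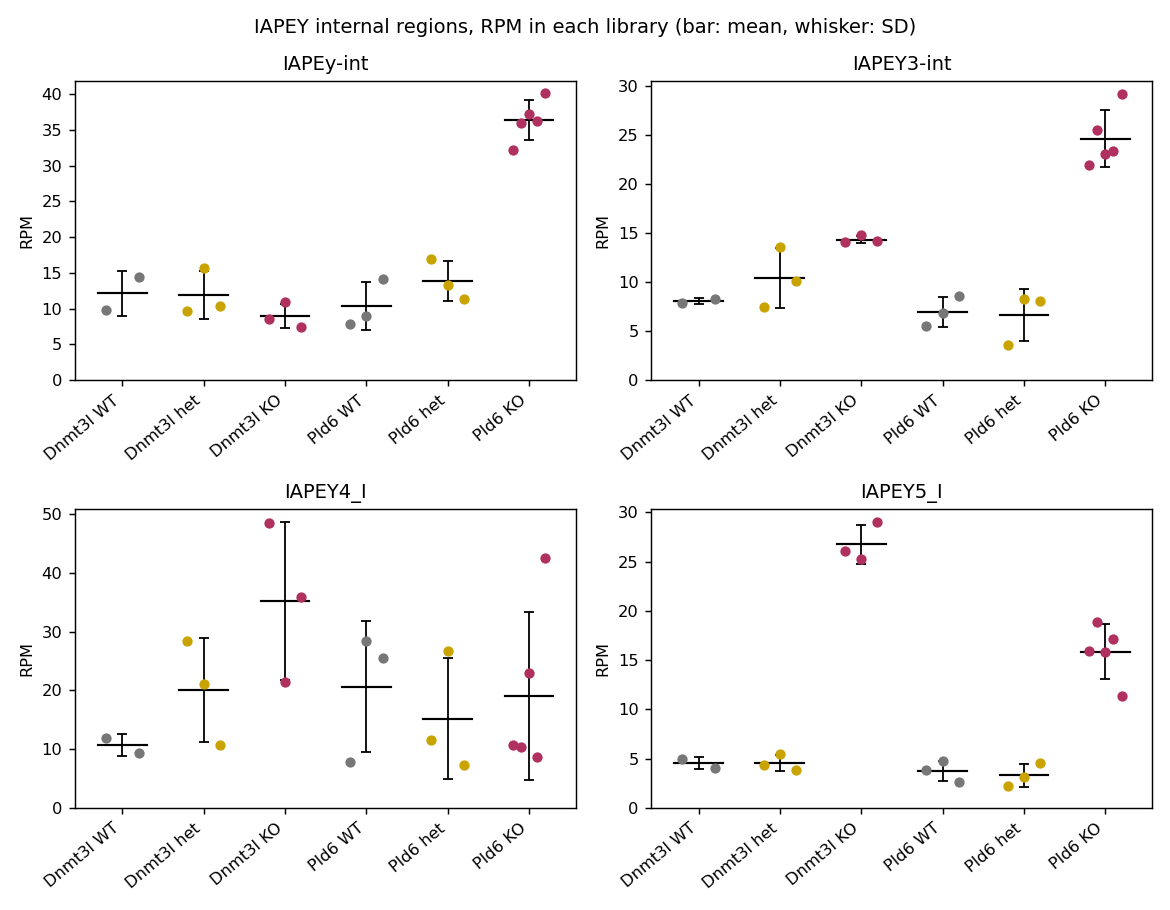
RPM of the 4 IAPEY internal regions (y axes, linear from 0, each panel on its own scale) in the 19 libraries by group (x axes), 1 point per library, with the group mean as a bar and the SD as a whisker. The 5 *Pld6* KO libraries stand above all others for IAPEy-int and IAPEY3-int, the 3 *Dnmt3l* KO libraries for IAPEY5_I, and IAPEY4_I is spread widely within most groups.

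IAPEY3-int, the internal region listed under the IAPEY3 name, had a higher RPM in both mutants, and more so in *Pld6* KO. It was at 5.49, 6.89 and 8.6 RPM in *Pld6* wild type, at 3.59, 8.28 and 8.07 RPM in *Pld6* heterozygotes and at 21.99, 25.59, 23.06, 23.42 and 29.27 RPM in *Pld6* KO. In the *Dnmt3l* line it was at 7.86 and 8.33 RPM in wild type, at 7.53, 13.62 and 10.16 RPM in heterozygotes and at 14.1, 14.81 and 14.18 RPM in KO. Every *Pld6* KO library was above every *Dnmt3l* KO library, and these in turn were above all wild-type and heterozygous libraries, the closest being *Dnmt3l* heterozygous replicate 2.

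Its fold change was 3.21 in *Pld6* KO (log2 difference 1.69, standard error 0.22) and 1.69 in *Dnmt3l* KO (log2 difference 0.76, standard error 0.28). The *Dnmt3l* difference depended on the scale of the libraries and on the controls. It was 0.46 against heterozygous in place of wild-type libraries. It was 0.14 after each library was divided by its median ratio to the mean library across 33 subfamilies at 5 RPM or more throughout, and the *Pld6* difference was then 1.22. The divisors were between 1.09 and 1.44 in KO libraries and between 0.657 and 0.950 in the others. Since the 33 are themselves retrotransposon subfamilies, a rise in KO that they share would also be divided out, and whether it was so was not tested. This rescaling also shifted the median of everything tested, in *Pld6* KO from 0.26 to -0.14 and for *Dnmt3l* from 0.50 to -0.02, and IAPEy-int then stood at 1.26 in *Pld6* KO and at -0.99 in *Dnmt3l* KO. For IAPEY_LTR the rescaled differences were 1.11 and -0.47.

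IAPEY5_I, the internal region listed under the IAPEY5 name, went against the order of the members above, being highest in *Dnmt3l* KO. It was at 26.08, 25.23 and 29.03 RPM in *Dnmt3l* KO, against 5.01 and 4.1 RPM in wild type and 4.33, 5.51 and 3.86 RPM in heterozygotes of that line. The *Pld6* KO libraries were at 15.94, 18.89, 15.87, 17.18 and 11.4 RPM, against 3.82, 4.73 and 2.65 RPM in wild type and 2.18, 3.16 and 4.56 RPM in heterozygotes. The 3 ranges, *Dnmt3l* KO, *Pld6* KO and all controls, did not overlap. The fold changes were 5.00 in *Dnmt3l* KO and 3.56 in *Pld6* KO, and the log2 differences were 2.33 (standard error 0.26) and 1.84 (standard error 0.21), so that the *Pld6* effect was below the *Dnmt3l* effect by 0.48 with a standard error of 0.33.

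IAPEY4_I, the internal region listed under the IAPEY4 name, had no such separation in the *Pld6* line. It was at 7.84, 28.41 and 25.58 RPM in *Pld6* wild type, at 11.49, 26.75 and 7.22 RPM in heterozygotes and at 10.74, 10.38, 22.94, 8.62 and 42.44 RPM in KO. The *Dnmt3l* libraries were at 11.97 and 9.39 RPM in wild type, at 28.36, 21.03 and 10.68 RPM in heterozygotes and at 48.38, 21.48 and 35.82 RPM in KO. Over all 19 libraries the values left a gap, with 9 libraries between 7.22 and 11.97 RPM and 10 between 21.0 and 48.4 RPM, and 4 of the 6 groups had libraries on both sides of it.

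Both *Dnmt3l* wild-type libraries were below this gap and all 3 *Dnmt3l* KO libraries above it, for a fold change of 3.10 and a log2 difference of 1.57 (standard error 0.64). The log2 difference was 0.93 after rescaling, 0.81 against heterozygous controls and 1.11 against pooled controls. In the *Pld6* line the fold change was 0.927 and the log2 difference -0.18 (standard error 0.51), and the SD was 75.0% of the mean in KO and 54.1% in wild type. The *Dnmt3l* fold change of 3.10 for IAPEY4_I stands beside *Pld6* wild-type libraries of which the highest was 3.62 times the lowest.

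**Figure D2:**
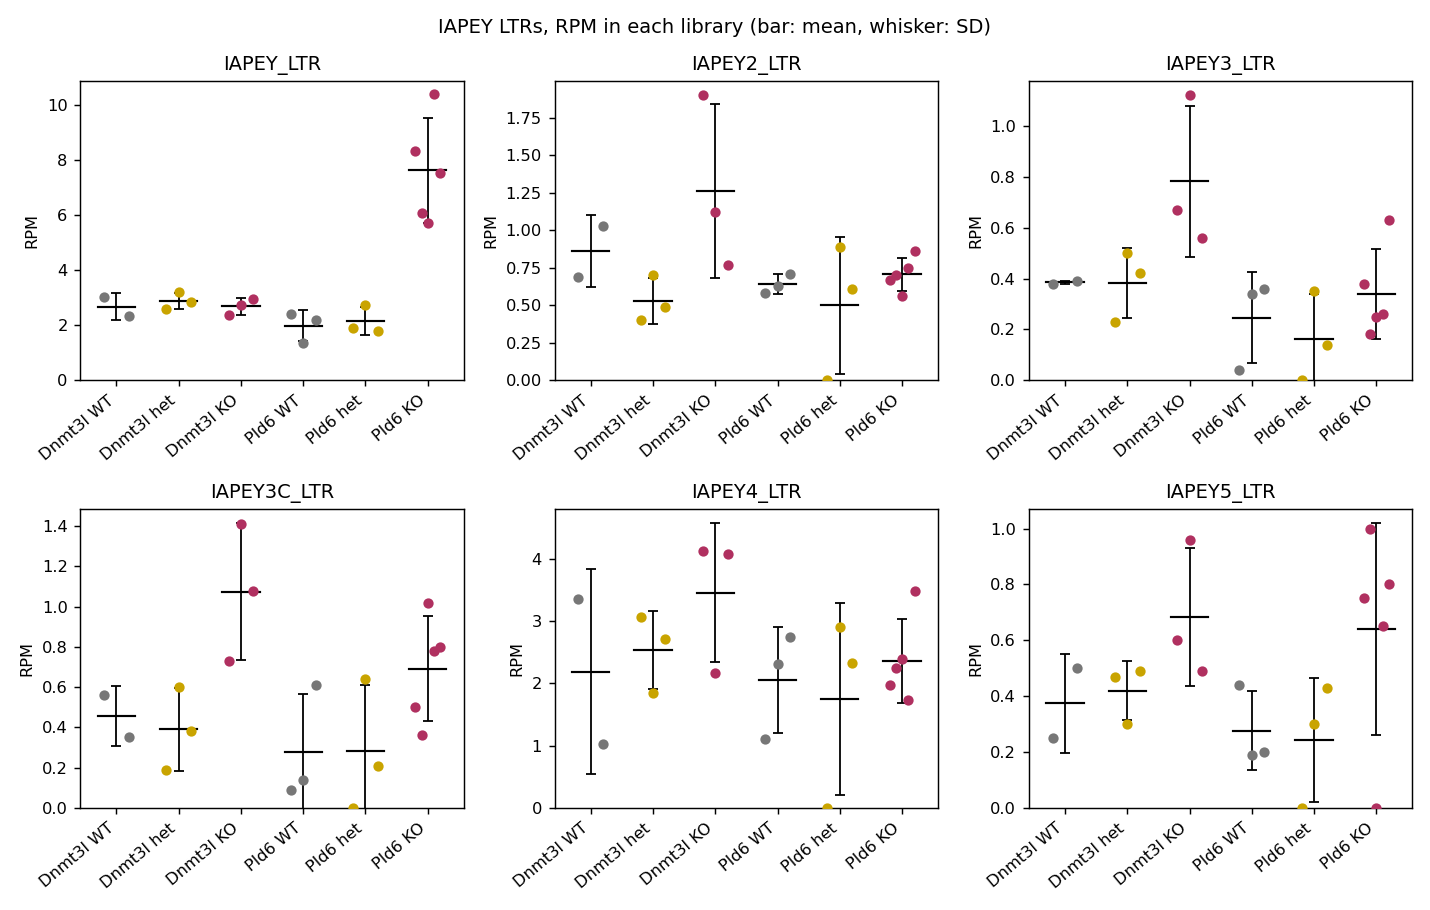
RPM of the 6 IAPEY LTRs (y axes, linear from 0, each panel on its own scale) in the 19 libraries by group (x axes), 1 point per library, with the group mean as a bar and the SD as a whisker. IAPEY_LTR has all 5 *Pld6* KO libraries above the other 14, and the other LTRs stay at or below 4.13 RPM with overlapping *Pld6* groups.

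Of the remaining LTRs, IAPEY4_LTR, the terminal repeat listed beside IAPEY4_I, was between 1.73 and 3.48 RPM in *Pld6* KO and between 1.11 and 2.75 RPM in *Pld6* wild type, and between 2.17 and 4.13 RPM in *Dnmt3l* KO against 3.35 and 1.03 RPM in wild type. Its log2 differences were 0.16 in *Pld6* KO (standard error 0.37) and 0.55 in *Dnmt3l* KO (standard error 0.46), and after rescaling they were -0.19 and 0.07. The *Dnmt3l* value rested on single wild-type libraries, being 1.10 without replicate 1 and 0.00 without replicate 2, and the *Pld6* value was -0.09 without *Pld6* wild-type replicate 1. It was listed at 0 in *Pld6* heterozygous replicate 1.

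IAPEY2_LTR and IAPEY3C_LTR reached 1 RPM in 3 libraries each, all of them KO for IAPEY3C_LTR, with highest values of 1.9 and 1.41 RPM in *Dnmt3l* KO. IAPEY3C_LTR had all 3 *Dnmt3l* KO libraries, from 0.73 to 1.41 RPM, above the wild-type libraries, and its *Pld6* KO libraries, from 0.36 to 1.02 RPM, overlapped wild type. The log2 differences of IAPEY3C_LTR were 0.41 in *Pld6* KO and 0.50 in *Dnmt3l* KO, with standard errors of 0.19 and 0.24. For IAPEY2_LTR they were 0.06 and 0.26, with the same standard errors, and after rescaling they were -0.15 and -0.07.

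IAPEY3_LTR and IAPEY5_LTR reached 1 RPM in 1 library each, with highest values of 1.12 RPM in *Dnmt3l* KO and 1.00 RPM in *Pld6* KO, and were not tested. IAPEY3_LTR was between 0.56 and 1.12 RPM in *Dnmt3l* KO and at 0.38 and 0.39 RPM in the wild-type libraries of that line. In the *Pld6* line the mean of IAPEY3_LTR was 0.247 RPM in wild type and 0.340 RPM in KO. That of IAPEY5_LTR was 0.277 RPM in wild type and 0.640 RPM in KO, and both overlapped. At these levels whether they followed IAPEY3-int and IAPEY5_I cannot be stated.

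As a count, 4 of the 8 tested members (IAPEy-int, IAPEY_LTR, IAPEY3-int and IAPEY5_I) were higher in *Pld6* KO at an adjusted p under 0.05, beside 30.7% of all 114 tested subfamilies, and 0 were lower, beside 0% of all. All *Pld6* KO libraries were above all wild-type libraries in 4 of the 10 members, beside 17.0% of all 259. IAPEY3C_LTR was also called in *Pld6* KO without *Pld6* wild-type replicate 3, with a log2 difference of 0.59, and against pooled controls, with 0.41. For *Dnmt3l* KO, 2 of 8 (IAPEY3-int and IAPEY5_I) were higher, beside 38.6% of all, and 0 were lower, beside 1.75%. The IAPEY3-int call in *Dnmt3l* KO was lost without any 1 of the 5 *Dnmt3l* wild-type and KO libraries, with a log2 difference between 0.72 and 0.79 in those fits. It was also lost after rescaling, without the filter on low values and against heterozygous controls, where the log2 difference was 0.46. IAPEY4_I was called in *Dnmt3l* KO without *Dnmt3l* KO replicate 2 (log2 difference 1.88) and without *Pld6* wild-type replicate 1, heterozygous replicate 2 or KO replicate 5 (1.57), and IAPEy-int was called lower there after rescaling, with a log2 difference of -0.99. With a mean RPM of at least 5 or the compared groups alone, IAPEY4_I was called in *Dnmt3l* KO as well. Against heterozygous controls, IAPEY2_LTR (log2 difference 0.54) and IAPEY3C_LTR (0.57) were called in *Dnmt3l* KO, the latter also against pooled controls (0.55). The *Dnmt3l* KO libraries were all above wild type in 5 of the 10 members, beside 32.8%. Nothing is read from these counts, because the group was selected on the same comparisons. The median log2 difference of the 8 tested members was 0.97 in *Pld6* KO and 0.53 in *Dnmt3l* KO, against 0.26 and 0.50 over all tested subfamilies.

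The group was selected under the name of a pattern, higher in *Pld6* KO only, seen in IAPEy-int and IAPEY_LTR. That these members have it was thus fixed by the selection. It was not the pattern of all IAPEY names. IAPEY5_I was higher in both mutants. IAPEY3-int was above wild type without overlap in both, but by a *Dnmt3l* difference that depended on scale and controls. IAPEY4_I was above wild type without overlap in *Dnmt3l* KO alone, as were IAPEY3_LTR and IAPEY3C_LTR at low RPM. For IAPEY4_I the *Dnmt3l* KO libraries, from 21.48 RPM, overlapped the *Dnmt3l* heterozygotes, which reached 28.36 RPM. All KO libraries were above all wild-type libraries in 17.0% of all 259 subfamilies for *Pld6* and in 32.8% for *Dnmt3l*. The remaining LTRs, also at low RPM, overlapped wild type in both mutants.

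**Figure D3:**
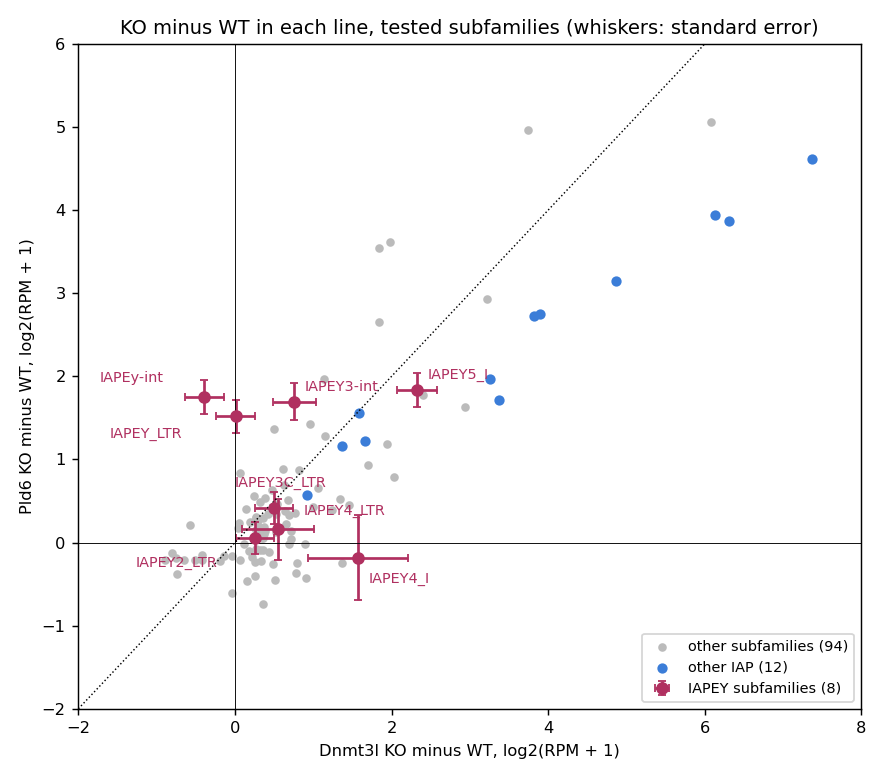
Difference of KO minus wild type on the log2(RPM + 1) scale in *Pld6* (y axis) and *Dnmt3l* (x axis) for the 114 tested subfamilies, with standard errors as whiskers for the 8 tested IAPEY subfamilies and a dotted line where both differences are equal. IAPEy-int and IAPEY_LTR lie at 1.75 and 1.52 on the y axis and near 0 on the x axis, away from the other IAP subfamilies, which extend to the right.

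The other IAP subfamilies, 15 rows with names beginning with IAP and not with IAPEY, include IAPEz-int, the internal region of the most active IAP elements, and its LTRs. Of their 12 tested members, 11 were higher in *Pld6* KO and 12 in *Dnmt3l* KO at the threshold, with median log2 differences of 2.35 and 3.59. IAPEz-int had a fold change of 15.7 in the *Pld6* line and 79.4 in the *Dnmt3l* line. Its *Pld6* effect was below its *Dnmt3l* effect by 2.44 on the log2 scale (standard error 0.47, adjusted p = 0.00181 from limma). IAPLTR1_Mm, one of the LTRs, had 17.1-fold and 69.9-fold changes, with an effect lower in *Pld6* by 2.19 (standard error 0.50, adjusted p = 0.00538 from limma). IAPLTR2_Mm had 7.04-fold and 15.0-fold changes, and the difference of 1.15 in the same direction did not pass (standard error 0.51, adjusted p = 0.157 from limma). Set beside these, the difference between the mutants had the opposite sign in IAPEy-int and IAPEY_LTR. It also had the opposite sign in IAPEY3-int (0.94, standard error 0.35). The remaining tested members had the sign of IAPEz-int, with IAPEY4_I at -1.75 (standard error 0.82) and IAPEY5_I at -0.485 (standard error 0.33). In IAPEY2_LTR (-0.20), IAPEY3C_LTR (-0.09) and IAPEY4_LTR (-0.39) the difference was smaller than its standard error (0.31, 0.31 and 0.59), so the sign there says little.

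The members made up a smaller share of the IAP signal in both mutants than in wild type, although their summed RPM was higher. The 10 members summed to 47.2 ± 15.3 RPM in *Pld6* wild type (SD, n = 3) and to 108 ± 17.2 RPM in *Pld6* KO (SD, n = 5), or 23.5% ± 4.08 and 7.65% ± 5.18 of the summed RPM of all IAP rows. In *Dnmt3l* the sums were 42.4 ± 0.792 RPM in wild type (SD, n = 2) and 95.3 ± 12.8 RPM in KO (SD, n = 3), or 20.0% ± 1.97 and 1.22% ± 0.266 of all IAP rows. The members did not rise together there. The largest steps in mean were those of IAPEY4_I (10.7 to 35.2 RPM) and IAPEY5_I (4.555 to 26.8 RPM), whereas IAPEy-int went from 12.1 to 8.97 RPM with overlap. IAPEz-int, part of the sum of all IAP rows, went from 81.5 to 6547 RPM. The *Pld6* KO share ranged from 4.92% to 16.9%, and the highest was that of replicate 5.

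*Pld6* KO replicate 5 was the highest of the 5 KO libraries for IAPEy-int, IAPEY3-int and IAPEY4_I, and the lowest for IAPEY5_I, IAPEz-int and IAPLTR1_Mm. It was 3.63-fold over the wild-type mean for IAPEy-int, whereas the other 4 were between 2.92-fold and 3.37-fold. For IAPEz-int it was 5.83-fold over the wild-type mean, whereas the other 4 were between 16.6-fold and 19.8-fold. The library with the smallest change in IAPEz-int thus had the largest in IAPEy-int among the 5. No such inverse order held among the other 4, where replicate 3 was the highest for both, at 1523 and 37.27 RPM. For IAPEY_LTR, replicate 5 was 2.86-fold over the wild-type mean, in the middle of the KO libraries.

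**Figure D4:**
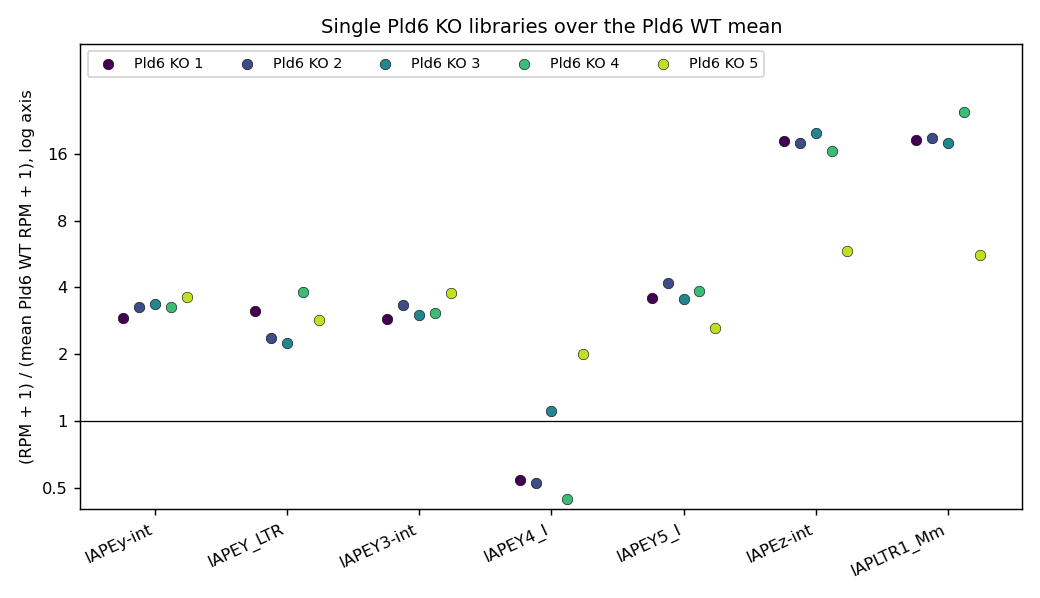
Ratio of RPM + 1 in each *Pld6* KO library to RPM + 1 of the mean of the 3 *Pld6* wild-type libraries (y axis, log scale) for 5 IAPEY subfamilies and, for comparison, IAPEz-int and IAPLTR1_Mm (x axis), 1 point per library. Replicate 5 is the highest point for IAPEy-int at 3.63 and the lowest for IAPEz-int at 5.83.

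The heterozygous libraries were tested as well. The wild-type libraries they were tested against had a part in the choice of the group, so these tests are not independent of that choice. Whether the heterozygous libraries also had a part is not known. The comparison between the heterozygotes of the lines may thus not be independent of it either. No member passed the threshold between *Pld6* heterozygotes and wild type or between *Dnmt3l* heterozygotes and wild type (0 of 8 in each, limma), beside 0% and 0% of all tested subfamilies. At an unadjusted p under 0.05 there were also 0 members in each, and 5 and 0 of all 114. For IAPEy-int the *Pld6* heterozygotes were at 13.9 ± 2.81 RPM (SD, n = 3), a log2 difference of 0.41 from wild type (95% interval -0.07 to 0.89, adjusted p = 0.624 from limma), and overlapped it. For IAPEY_LTR the difference was 0.08 (95% interval -0.39 to 0.55, adjusted p = 0.863 from limma).

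In *Dnmt3l* heterozygotes, IAPEy-int differed from wild type by -0.03 (95% interval -0.57 to 0.50, adjusted p = 0.966 from limma) and IAPEY_LTR by 0.08 (95% interval -0.44 to 0.61, adjusted p = 0.95 from limma). IAPEY4_I had the widest interval, with a difference of 0.76 (95% interval -0.58 to 2.10, adjusted p = 0.95 from limma), so a change of the size seen in KO could not be told from none. The heterozygous effects of the lines did not differ at the threshold for IAPEy-int (-0.45 for *Dnmt3l* minus *Pld6*, 95% interval -1.16 to 0.27, adjusted p = 0.885 from limma).

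Between the heterozygotes of the lines, 5 of 114 subfamilies, or 4.39%, differed at the threshold, and 0 of 8 members did (limma). IAPEY3-int was the 1 member at an unadjusted p under 0.05, higher in *Dnmt3l* heterozygotes by 0.62 (95% interval 0.10 to 1.14, unadjusted p = 0.0227, adjusted p = 0.235 from limma), and did not pass. Without *Pld6* heterozygous replicate 1 the difference was 0.28 (adjusted p = 0.808 from limma), and over all alternatives the adjusted p was between 0.0579 and 0.808. Its libraries were at 7.53, 13.62 and 10.16 RPM against 3.59, 8.28 and 8.07 RPM and overlapped. IAPEy-int differed by -0.22 (95% interval -0.70 to 0.26) and IAPEY_LTR by 0.32 (95% interval -0.15 to 0.79).

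Ordered by mean, IAPEy-int was lowest in *Dnmt3l* KO, followed by *Pld6* wild type, *Dnmt3l* heterozygotes, *Dnmt3l* wild type, *Pld6* heterozygotes and *Pld6* KO, and only the last step was without overlap of neighbours. IAPEY_LTR had the order *Pld6* wild type, *Pld6* heterozygotes, *Dnmt3l* wild type, *Dnmt3l* KO, *Dnmt3l* heterozygotes and *Pld6* KO, again with a gap at the last step only.

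The subfamilies nearest to these profiles were found by the root mean square difference of mean log2(RPM + 1) over the 6 groups, each profile centred on its own mean, among 106 tested subfamilies outside the group. For IAPEy-int they were ERVB7_1-LTR_MM at 0.439, RLTR6C_Mm at 0.521 and RLTRETN_Mm at 0.530, whereas the member IAPEY_LTR was at 0.270. The median over all 106 was 0.744, and the nearest lie below it by construction. Profiles were not scaled, so a subfamily at low RPM that varies little can also come near. For IAPEY_LTR they were ERVB7_1-LTR_MM at 0.262, L1_Mus3_orf2 at 0.339 and RLTR6C_Mm at 0.341, with a median of 0.567. The member IAPEY3-int was at 0.270 from IAPEY_LTR, as near as IAPEy-int, and at 0.504 from IAPEy-int. ERVB7_1-LTR_MM, an LTR of another endogenous retrovirus, was at a mean of 6.66 RPM in *Pld6* KO, 3.27 RPM in *Pld6* wild type, 4.24 RPM in *Dnmt3l* KO and 4.03 RPM in *Dnmt3l* wild type. Its *Pld6* step was thus smaller than that of IAPEy-int or IAPEY_LTR.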

How the data were processed

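Directional poly(A) libraries were read single-end at 50 bp, and the authors mapped the reads with hisat2 to consensus sequences of retrotransposons and deposited, per library, the RPM of 259 subfamilies with 2 decimals. The submitters' processing notes also name Trim Galore and mm10. The hisat2 version, the treatment of reads matching several consensus sequences and the reads in the total are not given in the sources used here. Reads of similar IAP sequences, IAPEY or other, could thus be assigned to any of their names. IAPEz-int had means of 1206 RPM in *Pld6* KO and 6547 RPM in *Dnmt3l* KO, and whether reads of it were assigned to IAPEY names was not tested.

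Groups came from the sample labels. The log2(RPM + 1) values of 114 subfamilies, those reaching 1 RPM in 2 or more libraries, entered a limma 3.58.1 model (R 4.3.3, mean-variance trend, all 19 libraries, 6 groups, no covariates). Two-sided p-values were Benjamini-Hochberg adjusted over all 114 in each comparison, with a threshold of 0.05. IAPEY3C_LTR and IAPEY2_LTR passed this filter through 3 libraries each. For IAPEY3C_LTR these were all KO, at 1.41 and 1.08 RPM in *Dnmt3l* KO and 1.02 RPM in *Pld6* KO. Its calls in KO are thus not independent of the filter. For IAPEY2_LTR they were at 1.9 and 1.12 RPM in *Dnmt3l* KO and 1.03 RPM in *Dnmt3l* wild type. The fit was tested on simulated data. Whole reads could not be recovered, so no count model was used. Summaries and plots used numpy 2.4.6, pandas 2.3.3 and matplotlib 3.10.9 under Python 3.11.15.

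The members, the list of other IAP subfamilies and the tests were chosen with earlier results of these data known. Named subfamilies are all IAPEY names, IAPEz-int, IAPLTR1_Mm and IAPLTR2_Mm for comparison, and the 3 nearest profiles of IAPEy-int and of IAPEY_LTR. Alternatives covered the pseudocount, the filter, rescaling, the fit, the controls, the replicate block and each library left out in turn.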

Additional observations from a re-analysis of the deposited data

Results flagged for a closer look

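IAPEy-int is listed because every *Pld6* KO library was above the mean of its wild type and every *Dnmt3l* KO library below the mean of its own. The fold changes of the group means were 3.29 in the *Pld6* line and 0.760 in the *Dnmt3l* line, and the *Dnmt3l* libraries overlapped. The difference was not tested, because these libraries served to select the group.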

How the results depend on the processing

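In the heterozygous comparisons the number of members past the threshold was 0 under all 28 alternatives. Members higher in *Pld6* KO numbered 4, with a range of 3 to 5 over 32 alternatives (3 with a mean RPM of at least 5, where IAPEY_LTR was left out of the fit). Those higher in *Dnmt3l* KO were 2, but 1 without a filter on low values or after rescaling by median ratios, 3 with a mean RPM of at least 5, with the compared groups alone, or with heterozygous or pooled controls, 4 with either control set without *Pld6* heterozygous replicate 1 (chosen after seeing the data), and between 1 and 3 with single libraries left out. Members lower in *Dnmt3l* KO were 0, but 1 after rescaling. The log2 difference of IAPEy-int in *Pld6* KO, 1.75, was 1.26 after rescaling, 1.34 against heterozygous controls, 1.55 against pooled controls, 1.49 against heterozygous controls without *Pld6* heterozygous replicate 1 and between 1.60 and 1.98 with single libraries left out. That of IAPEY_LTR, 1.52, was 1.89 with a pseudocount of 0.1, 1.11 after rescaling and between 1.36 and 1.63 with single libraries left out. In *Dnmt3l* KO, IAPEy-int was at -0.99 after rescaling and between -0.64 and -0.14 with single libraries left out, and IAPEY_LTR at -0.47 after rescaling and between -0.13 and 0.14. The cause was not tested. Depth is unknown, so precision at low RPM cannot be stated.

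Whether the replicate numbers pair the samples could not be settled, and they were not used as pairs in the main fit. Of 13 same-numbered pairs, 7 had a correlation of deviations over 0.1 (range -0.30 to 0.46). Different-numbered pairs ranged from -0.60 to 0.42. In groups this small the deviations within a group depend on each other, so these correlations cannot exclude pairing. The replicate block gave each number 1 term shared by all groups of both lines, so it is no check of pairing within a line. Numbers 4 and 5 occur only in *Pld6* KO, so the *Pld6* KO values of this fit rest on replicates 1, 2 and 3. With the block, 4 members were higher in *Pld6* KO and 2 in *Dnmt3l* KO. IAPEy-int was at 1.71 and -0.38 and IAPEY_LTR at 1.37 and 0.02. Calls over all subfamilies were 33 instead of 35 in *Pld6* KO and 44 instead of 46 for *Dnmt3l*.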
